A study of Mus musculus with 8 samples.

Results

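The synucleins are small acidic proteins of nerve terminals, and beta-synuclein (Sncb) and gamma-synuclein (Sncg) are the 2 members described here. Their transcripts were taken from the quantification files by gene symbol, which gave 5 of 136202 transcripts and 2 of 53392 genes. Both were compared in the cerebral cortex of newborn mice (postnatal day 0, FVB/N background) between 4 libraries labelled R342X mutant and 4 labelled wild type. R342X is a mutation in Phf6, an X-linked gene whose product is a PHD finger protein of the nucleus. The labels name no animal, litter, sex or zygosity and do not say how the allele was made. If some libraries of a genotype share an animal, p-values reflect no more than the spread among these libraries, part of which may be technical. The pair was picked with the genotype difference of these same libraries in view. Genotype differences of Sncb and Sncg are therefore given as a description, with no test.

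Synucleins bind curved, negatively charged membranes through a repeated N-terminal segment that folds into a helix on contact with lipid. Beta-synuclein is concentrated at presynaptic terminals of the central nervous system, where it sits on synaptic vesicles, and it is known to slow the aggregation of its relatives in vitro. Gamma-synuclein is best known from peripheral sensory and motor neurons and from retinal ganglion cells. In the adult mouse cortex its gene marks, and gives its name to, a class of inhibitory interneurons.

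The libraries held between 30469745 and 39453169 estimated reads in mutants and between 48841467 and 74266937 in wild type, so every wild-type library was deeper than every mutant one. Phf6 averaged 42.2 ± 1.93 CPM (read counts scaled to library size with TMM factors) in mutants, against 79.0 ± 8.87 CPM in wild-type cortex (SD, n = 4 each), and no mutant library reached the lowest wild-type one. The cortical transcription factor genes Tbr1 and Neurod6 stood at 209 and 337 CPM in mutants, against 211 and 405 CPM in wild type. On the first principal component, which carried 35.3% of the variance, set 1 held mutant replicates 1 to 3 beside wild-type replicate 1, and set 2 held mutant replicate 4 beside the other 3 wild-type libraries. The labels give no batch that matches these sets.

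Sncb (ENSMUSG00000034891) lies on the minus strand of chromosome 13 from 54758860 to 54766595, and Sncg (ENSMUSG00000023064) on the minus strand of chromosome 14 from 34370274 to 34374789, in GRCm38. The main Sncb transcript has 6 exons and the single Sncg transcript has 5. No annotated gene overlaps either of them. The bases upstream of each start site are shown because the 2 genes differ so widely in level in the same RNA. They are taken from RefSeq promoters of GRCm38.p6 and read 5′ to 3′ on the strand of the gene. Capitals mark a GC box (GGGCGG, searched on both strands). For Sncb the window is chr13:54766596-54766845. For Sncg it is chr14:34374790-34374919, the part of the RefSeq window that lies outside the first exon of the GENCODE transcript.
Sncb: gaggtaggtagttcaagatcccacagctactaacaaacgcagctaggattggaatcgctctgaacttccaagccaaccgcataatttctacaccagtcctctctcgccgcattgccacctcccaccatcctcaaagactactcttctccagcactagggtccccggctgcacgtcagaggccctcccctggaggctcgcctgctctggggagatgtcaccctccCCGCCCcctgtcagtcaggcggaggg
Sncg: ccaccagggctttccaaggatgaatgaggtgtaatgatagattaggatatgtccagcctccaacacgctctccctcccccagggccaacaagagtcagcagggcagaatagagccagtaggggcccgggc

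The 250 bases upstream of Sncb held 10 CpG dinucleotides and 58.8% G and C, against medians of 6 and 52.4% over the 32851 promoter windows of the same length. The 130 bases upstream of the GENCODE start of Sncg held 2 CpG dinucleotides and 56.9% G and C. The medians were 2 and 50.8% over the first 130 bases of every window, the part furthest from its RefSeq start. A GC box occurred once in the Sncb window, and 32.7% of windows of its length hold one. A CCAAT box (CCAAT, both strands) also occurred once there, as in 33.8% of windows. Neither motif was found in the shorter Sncg window, and 14.0% and 17.5% of windows hold them in that same part. The bases between the Sncg window and its RefSeq start were not searched. A TATA box (TATAAA) and a cyclic AMP response element (TGACGTCA) were found in neither window, on either strand. A match or its absence describes these letters only.

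Sncb was an abundant transcript of the newborn cortex. Its level per length was 217, 224, 213 and 185 TPM (transcript abundance scaled by length and library) in mutant replicates 1 to 4 and 158, 155, 159 and 153 TPM in wild-type replicates 1 to 4. Among 20822 protein-coding genes it ranked between 574 and 745 in mutants and between 899 and 937 in wild type. The wild-type libraries lay close together, whereas mutant replicate 4 stood below the other 3 mutants and above every wild-type library.

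On the CPM scale, Sncb stood at 125, 131, 130 and 115 CPM in mutant replicates 1 to 4 and at 92.1, 98.0, 101 and 98.5 CPM in wild-type replicates 1 to 4. Mutants averaged 125 ± 7.02 CPM, against 97.3 ± 3.65 CPM in wild-type cortex (SD, n = 4 each), a ratio of 1.29. The groups did not overlap. Of the 20097 genes that passed the filter on low counts, 2.95% had every mutant library above every wild-type one, and since Sncb was chosen by this contrast nothing is read from its being among them. Its fitted log2 fold change was 0.36 ± 0.05 (SE, edgeR), at percentile 94.5 of the tested genes, whose median was 0.00. The mean of 4403 estimated reads in mutants and 6088 in wild type leaves little counting error: the exact 95% Poisson intervals of the mutant libraries started at 112 CPM and those of wild type ended at 103 CPM. These intervals cover counting error only.

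The log2 fold change of Sncb lay between 0.34 and 0.40 over 16 other fits. Within set 1 the log2 difference was 0.48, with 3 mutants and 1 wild-type library, and within set 2 it was 0.22, with 1 mutant and 3 wild-type libraries. The authors' deposited table lists Sncb with a mean of 5171 normalized counts and a log2 fold change of 0.32 ± 0.07 (its standard error). Whether that value was shrunk is not given in the sources used here.

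**Figure D1:**
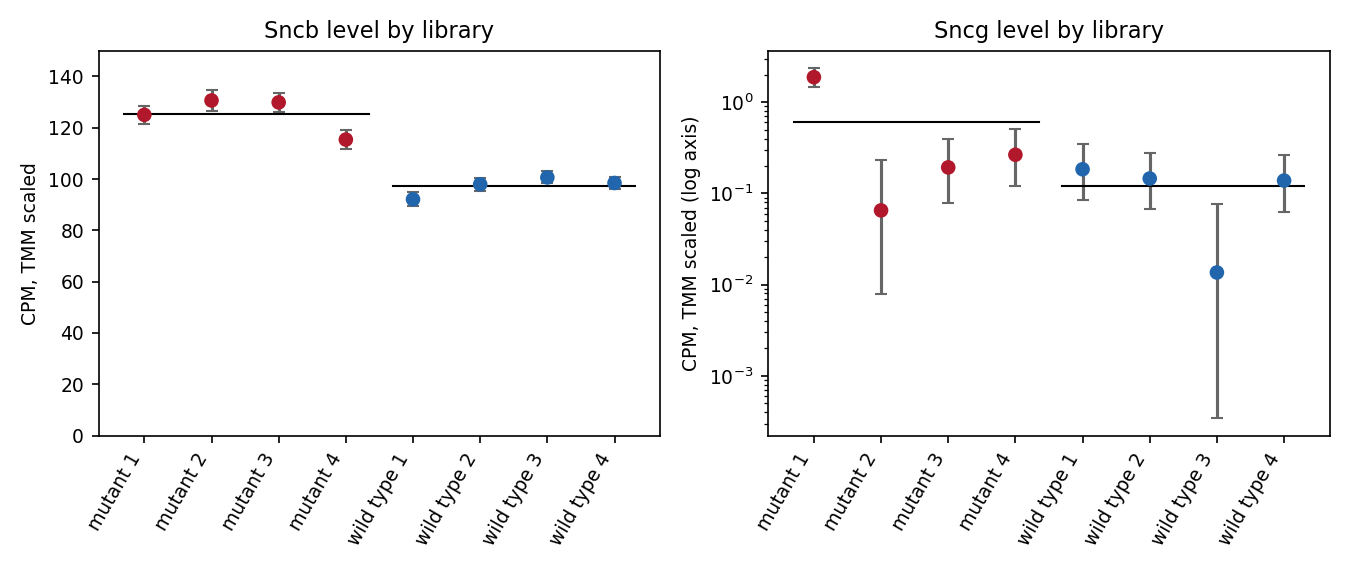
Levels of Sncb (left, CPM) and Sncg (right, CPM on a log axis) in each library, mutants in red and wild type in blue. Points are libraries, bars exact 95% Poisson intervals that cover counting error only, and black lines group means. Every mutant library lies above every wild-type library for Sncb, and mutant replicate 1 stands alone at 1.88 CPM for Sncg.

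Nearly all Sncb RNA was assigned to 1 protein-coding transcript. Sncb-201 took 94.9% ± 1.59 of Sncb TPM in mutants and 95.3% ± 0.66 in wild type (SD, n = 4 each). It stood at 204, 213, 200 and 179 TPM in mutant replicates 1 to 4 and at 150, 148, 151 and 147 TPM in wild-type replicates 1 to 4, so the groups did not overlap and the gene level followed this transcript.

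The minor transcripts were read thinly. Sncb-202, a protein-coding form with another first exon, was at 1.63 ± 1.09 TPM in mutants, against 1.69 ± 0.50 TPM in wild type, and it was listed at 0 in mutant replicate 4. Sncb-203 carries an exon that runs from 54765059 to 54765692, past the end of exon 2 into the next intron. It was at 2.34, 1.99, 3.72 and 1.59 TPM in mutant replicates 1 to 4 and at 1.24, 1.07, 0.95 and 0.54 TPM in wild-type replicates 1 to 4. The groups did not overlap, and the transcript took 1.14% ± 0.41 of Sncb TPM in mutants and 0.61% ± 0.19 in wild type. These values rest on between 12.5 and 46.2 estimated reads per library, and their assignment error is unknown. The share of all transcripts separated in this way was not computed. Since Sncb was chosen by this contrast, nothing is read from the separation of Sncb-201 or Sncb-203. Sncb-204, which starts inside the same intron at 54763067, was at 6.74 ± 2.18 TPM in mutants, against 4.67 ± 1.32 TPM in wild type, with overlapping groups.

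Summed over Sncb-203 and Sncb-204, the retained-intron share of Sncb TPM was 5.17%, 3.83%, 5.35% and 2.91% in mutant replicates 1 to 4 and 4.97%, 3.30%, 3.22% and 2.86% in wild-type replicates 1 to 4. The 3 highest shares belonged to mutant replicates 1 and 3 and wild-type replicate 1, all of set 1. Over all transcripts, by contrast, retained-intron reads took 3.67% to 3.87% of reads in set 1 and 4.05% to 4.22% in set 2. The part of the library sets in the Sncb shares was not tested.

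**Figure D2:**
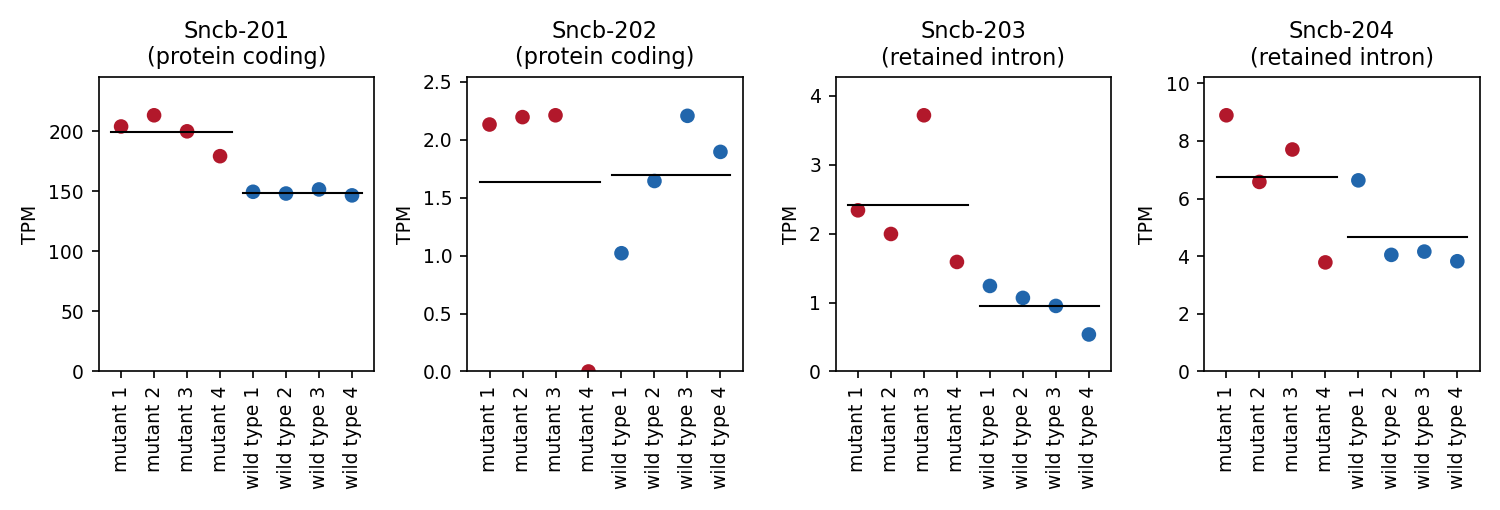
Level of each Sncb transcript in TPM by library, mutants in red and wild type in blue, each panel with its own scale from 0. Points are libraries and black lines group means. Sncb-201 carries the gene level. Sncb-203 does not overlap between genotypes, at between 0.54 and 3.72 TPM on few reads, from which nothing is read. Sncb-202 is at 0 in mutant replicate 4.

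Of 12 marker genes of all neuron classes, 8 had a log2 fold change above 0 and 4, Tubb3, Elavl3, Dcx and Stmn2, had one below 0, with a median of 0.08. Over all tested genes, 50.3% had a log2 fold change above 0. None of the 12 was called by edgeR at an adjusted p under 0.05, where 4 of 20097 genes were (0.0199%). Averaged over the list, the centred log2 level was 0.06, 0.09, 0.08 and -0.05 in mutant replicates 1 to 4 and -0.01, -0.04, -0.06 and -0.07 in wild-type replicates 1 to 4. The values were highest in the 4 libraries of set 1, wild-type replicate 1 among them. The summed level of the list ranged from 5218 to 5575 TPM in mutants and from 4996 to 5420 TPM in wild type. Other lists had larger medians, those of 3 glial cell types among them. Of 8 astrocyte genes, 6 were above 0 with a median of 0.25, and they summed to between 2434 and 2704 TPM in mutants and to between 2215 and 2599 TPM in wild type. The oligodendrocyte lineage had 7 of 7 genes above 0 with a median of 0.21, and sums of 158 to 189 TPM in mutants and 134 to 185 TPM in wild type. Microglia had 7 of 7 above 0 with a median of 0.16, and their sums, 92.4 to 108 TPM in mutants and 76.9 to 90.1 TPM in wild type, did not overlap. Nor did those of the monoaminergic and synuclein turnover lists described below. The 9 cerebral cortex markers separated the other way, at 1125 to 1221 TPM in mutants and 1244 to 1343 TPM in wild type. The share of gene sets whose sums separate was not computed, and nothing is read from these separations. None of the genes of the 3 glial lists was called by edgeR. Dividing progenitor genes, 10 of 10 with a fold change below 0, summed to between 429 and 534 TPM in mutants and to between 496 and 516 TPM in wild type. In bulk RNA, a change in the number of cells of a type and a change in RNA per cell cannot be told apart.

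The centred log2 level of Sncb minus that of the neuron list was 0.13, 0.16, 0.16 and 0.12 in mutant replicates 1 to 4 and -0.25, -0.13, -0.07 and -0.09 in wild-type replicates 1 to 4. The difference of the means was 0.28. Relative to the list of synaptic vesicle proteins it was 0.19, with mutants between 0.07 and 0.11 and wild type between -0.28 and 0.02. Both scalings were chosen after the data were seen. Since Sncb was chosen for its genotype difference, nothing is read from the separation of these values, and the part of cell types in the difference was not tested.

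Neither of the nearest tested neighbours of Sncb on the chromosome was called. Gprin1, a neuronal target of G proteins that lies 8986 bases beyond its 3′ end, was at 393 CPM in mutants, against 398 CPM in wild type, at -0.02 ± 0.05 in log2 fold change (edgeR adjusted p = 0.900). The nearest tested gene on the other side, the predicted gene Gm16249, was at 0.52 CPM in mutants, against 0.65 CPM in wild type (edgeR adjusted p = 0.593).

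By the root mean square difference of centred log2 CPM over the 8 libraries, the 5 genes of 12749 closest to Sncb included Vgf, Pcsk1n, Tatdn3 and Cds1. Their distances ran from 0.064 to 0.066, against a median of 0.216 over the genes compared. Vgf encodes a secreted neuropeptide precursor, and Pcsk1n encodes proSAAS, an inhibitor of prohormone convertase 1. Cds1 encodes a CDP-diacylglycerol synthase of phospholipid synthesis, and Tatdn3 a protein of the TatD nuclease family. Vgf stood at 43.7, 43.4, 44.4 and 41.1 CPM in mutant replicates 1 to 4 and at 32.6, 32.8, 38.8 and 35.3 CPM in wild-type replicates 1 to 4. Pcsk1n had a log2 fold change of 0.25 ± 0.05. None of these 4 passed the test over all genes, with edgeR adjusted p between 0.141 and 0.275. They were picked for their likeness to Sncb, itself chosen for its genotype difference. Their higher levels in mutants follow from that choice, and nothing is read from them.

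**Figure D3:**
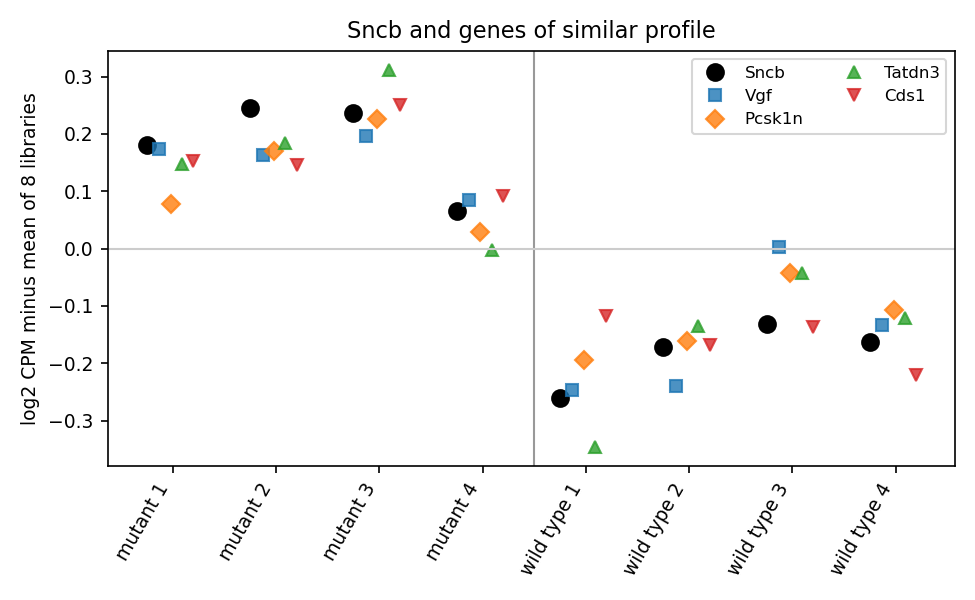
Centred log2 CPM of Sncb (black) and of 4 of the 5 genes with the smallest root mean square difference from it, by library, mutants left and wild type right. Each point is 1 gene in 1 library, set slightly apart for legibility. All 5 plotted genes have their lowest values among wild-type libraries, and mutant replicate 4 has lower values than mutant replicates 2 and 3 in Sncb, Vgf, Pcsk1n, Tatdn3 and Cds1. The shared pattern follows from how the genes were picked.

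The proteins that synucleins work with or are handled by were drawn up as 5 lists of 70 genes, all of which were tested. None was called by edgeR. An unadjusted p under 0.05 was found for 22 of the 70, and for 13.7% of all tested genes. limma-voom called 0 of them as well, and DESeq2 called 8, all 8 higher in mutants, where it called 2.63% of all genes and 1.48% as higher. Their median log2 fold change was 0.05, against 0.00 over all tested genes.

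Synaptic vesicle proteins had the highest median of the 5 lists. Medians were higher for peripheral sensory and motor neuron (0.32), monoaminergic (0.22), astrocyte and oligodendrocyte markers, and no test compared the lists. Of 17 genes, 15 had a log2 fold change above 0 with a median of 0.19, and 4 were called by DESeq2 and none by edgeR. The smallest p belonged to Synpr, a vesicle protein of the synaptophysin family, at 33.6 CPM in mutants, against 27.2 CPM in wild type (log2 fold change 0.31 ± 0.06, edgeR adjusted p = 0.159). Slc17a7, the vesicular glutamate transporter VGLUT1, stood at 0.30 ± 0.08 (edgeR adjusted p = 0.225). The synapsin gene Syn2 stood at 0.27 ± 0.08 (edgeR adjusted p = 0.244). The centred mean of this list was between -0.03 and 0.15 in mutants and between -0.18 and 0.02 in wild type, so mutant replicate 4 fell below wild-type replicate 1.

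The SNARE fusion machinery and its chaperones followed at a lower level, with 12 of 15 genes above 0 and a median of 0.10. Napb, an attachment protein that recruits the SNARE-dismantling ATPase, was at 126 CPM in mutants, against 112 CPM in wild type (0.17 ± 0.05, edgeR adjusted p = 0.241). Vamp2, the vesicle SNARE, stood at 0.05 ± 0.04 (edgeR adjusted p = 0.555). Snap25, its partner on the plasma membrane, stood at 0.10 ± 0.05 (edgeR adjusted p = 0.379). Neurofilament and axonal genes had a median of 0.06, with 7 of 10 above 0, and the light neurofilament gene Nefl was at 97.3 CPM in mutants, against 86.2 CPM in wild type (0.18 ± 0.05, edgeR adjusted p = 0.223).

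Genes for kinases and phospholipases D reported to act with synucleins, and genes of synuclein turnover, had medians near 0. Of 14 genes for kinases and phospholipases D, 6 were above 0, with a median of -0.01. Pld2, a phospholipase D isoform, was at 30.6 CPM in mutants, against 24.9 CPM in wild type (0.30 ± 0.05, edgeR adjusted p = 0.141). It was called with the library set as a term (edgeR adjusted p = 0.0305), a fit that called 0.602% of genes. The sets were drawn from these same expression values and are unbalanced by genotype, so nothing is read from that call. Plk2, a kinase that phosphorylates synucleins, stood at -0.04 ± 0.04 (edgeR adjusted p = 0.639). Of 14 turnover genes, 7 were above 0, with a median of 0.01, and 0 had an unadjusted p under 0.05. The ubiquitin ligase gene Siah1a had the smallest p, at 55.5 CPM in mutants, against 68.1 CPM in wild type (-0.30 ± 0.14, edgeR adjusted p = 0.383).

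**Figure D4:**
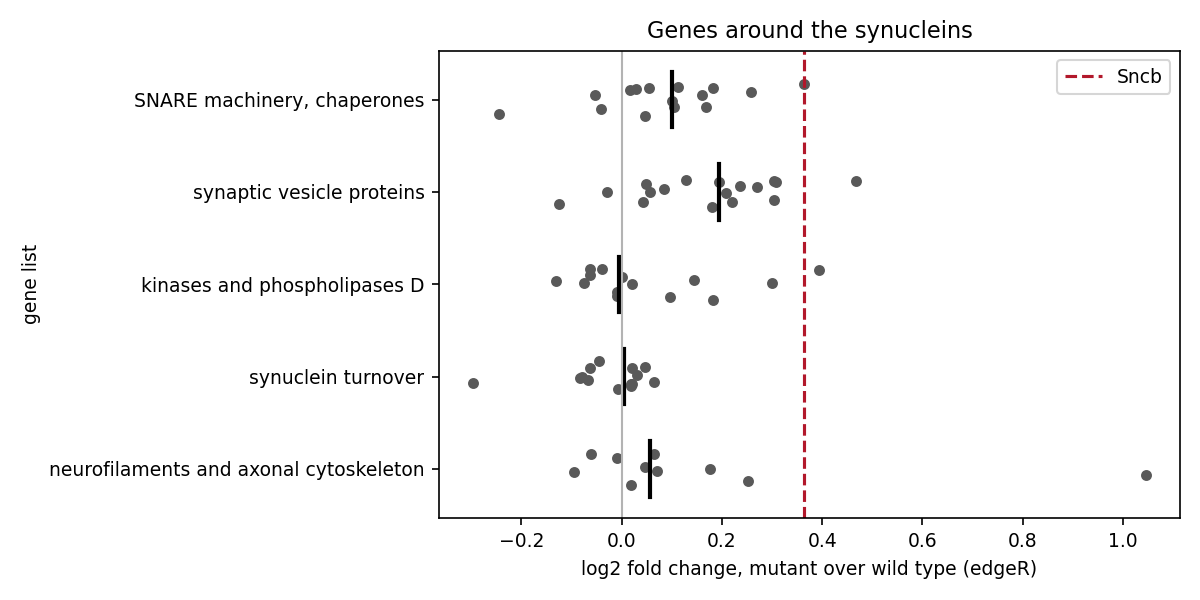
Log2 fold changes, mutant over wild type, of the 70 genes in 5 lists around the synucleins. Points are genes, spread vertically for legibility, black bars list medians and the dashed red line the Sncb value of 0.36. Synaptic vesicle proteins have the highest median, 0.19, and the point at 1.05 is Prph.

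Sncg was close to the limit of detection in 7 of the 8 libraries. It had 75, 2, 7 and 9 estimated reads in mutant replicates 1 to 4 and 9, 9, 1 and 9 in wild-type replicates 1 to 4. Those counts correspond to 1.88, 0.07, 0.19 and 0.27 CPM in mutants and to 0.18, 0.15, 0.01 and 0.14 CPM in wild type. The exact 95% Poisson interval of mutant replicate 1 ran from 1.48 to 2.36 CPM, and the highest upper bound among the other libraries was 0.504 CPM. Per length, Sncg was at 5.33, 0.18, 0.52 and 0.71 TPM in mutants, against 0.52, 0.38, 0.04 and 0.35 TPM in wild type. In wild type the mean was 0.32 TPM for Sncg and 156 TPM for Sncb.

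Because of its low counts Sncg did not pass the filter and was not among the 20097 tested genes. Without the filter its fitted log2 fold change was 2.43 ± 0.78 (SE, edgeR). The mean was 0.60 ± 0.86 CPM in mutants, against 0.12 ± 0.07 CPM in wild-type cortex (SD, n = 4 each), and the SD in mutants exceeded the mean. Without mutant replicate 1 the fitted value was 0.60 ± 0.65 and the mutant mean was 0.17 ± 0.10 CPM (SD, n = 3). The other 3 mutants overlapped the wild-type libraries. A difference between the genotypes apart from that library was not detectable at this depth. The authors' deposited table lists Sncg with a mean of 16.9 normalized counts and a log2 fold change of 0.004 ± 0.05 (its standard error), whose shrinkage, if any, is not given in the sources used here. DESeq2 without the filter and without shrinkage gave 2.35 ± 0.92 (SE) here, so the 2 values are not on a like scale.

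Several markers of peripheral neurons were also highest in mutant replicate 1. Of 12 genes listed for sensory and motor neurons, 8 had their highest level there. The share of all genes highest in that library was not computed. Some margins were small. Scn9a was at 26.2 CPM there, against 24.4 CPM in mutant replicate 2, and Chat at 0.40 CPM, against 0.39 CPM in mutant replicate 3. Calca, the calcitonin gene-related peptide gene with the smallest p of the list, was at 1.23, 0.62, 0.72 and 0.68 CPM in mutant replicates 1 to 4 and at 0.27, 0.37, 0.35 and 0.48 CPM in wild-type replicates 1 to 4 (log2 fold change 1.14 ± 0.27, edgeR adjusted p = 0.187). It did not overlap between genotypes, and the other mutant libraries also lay above every wild-type one. Of the 20097 tested genes, 2.95% had every mutant library above every wild-type one. Since Calca was named for the smallest p of the list, nothing is read from this separation. Avil, which encodes the sensory-neuron actin regulator advillin, was at 2.98, 0.20, 0.08 and 0.44 CPM in mutant replicates 1 to 4 and at 0.29, 0.21, 0.11 and 0.14 CPM in wild-type replicates 1 to 4. Prph, which encodes the peripheral intermediate filament peripherin, was at 8.65, 2.12, 2.26 and 2.71 CPM in mutants, against 1.49, 2.30, 1.84 and 2.05 CPM in wild type. Pou4f1, a sensory transcription factor, was at 1.00 CPM in mutant replicate 1 and at most 0.48 CPM elsewhere. The nociceptor sodium channel Scn10a was at 2.33 CPM in mutant replicate 1 and at most 1.48 CPM elsewhere.

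Not every gene of the list was highest there. Slc5a7, the choline transporter, was at 1.33 CPM in mutant replicate 1 and between 0.80 and 2.09 CPM elsewhere, and Mnx1, a motor neuron factor, had no reads in any library. The summed level of the list was 40.8, 28.1, 29.1 and 22.5 TPM in mutants, against 30.3, 23.5, 20.7 and 28.9 TPM in wild type. Prph was also the gene closest to Sncg in profile among the 12749 compared, at a root mean square difference of 0.85 against a median of 1.38, and Slc35d3 came next at 1.12, then Tmem170, Ccdc51 and Zfp119a at up to 1.16.

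The same library was then ranked by gene, among the genes with at least 0.5 CPM in it, which repeats the observation that prompted it and gives no further support. This placed Sncg and Avil among the first 12 of 17199 genes by how far mutant replicate 1 stood above the next library on the log2(CPM + 0.1) scale. The gap was 2.44 for Sncg and 2.51 for Avil. Scn7a, Prrxl1, Pirt, P2rx3 and Scn11a, all known from sensory ganglia, were also among the first 12, with 0.86 to 2.33 CPM in mutant replicate 1. The part of ganglion cells in the Sncg value was not tested.

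Among interneuron markers, 2 were highest in mutant replicate 1. Vip was at 1.39 CPM there and at most 1.28 CPM elsewhere, and Lamp5 at 2.11 CPM and at most 1.63 CPM elsewhere. The 12 genes listed for the Sncg class of interneurons and its relatives, among them Cck, Cnr1 and Adarb2, summed to 434, 437, 428 and 377 TPM in mutant replicates 1 to 4 and to 415, 382, 404 and 354 TPM in wild-type replicates 1 to 4. Gad2, an enzyme of GABA synthesis with the smallest p of the list, was at 53.8 CPM in mutants, against 70.0 CPM in wild type (log2 fold change -0.38 ± 0.09, edgeR adjusted p = 0.189). Cck was at 31.9 CPM in mutant replicate 1 and between 24.8 and 32.9 CPM elsewhere. Sums of the size of this list could not show a change on the scale of Sncg, at 5.33 TPM in mutant replicate 1. The part of interneurons in the Sncg value was not tested. Monoaminergic neuron genes summed to between 10.5 and 12.9 TPM in mutants and to between 7.93 and 9.89 TPM in wild type, with the dopaminergic factor Pitx3 at 3 reads or fewer over all libraries.

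**Figure D5:**
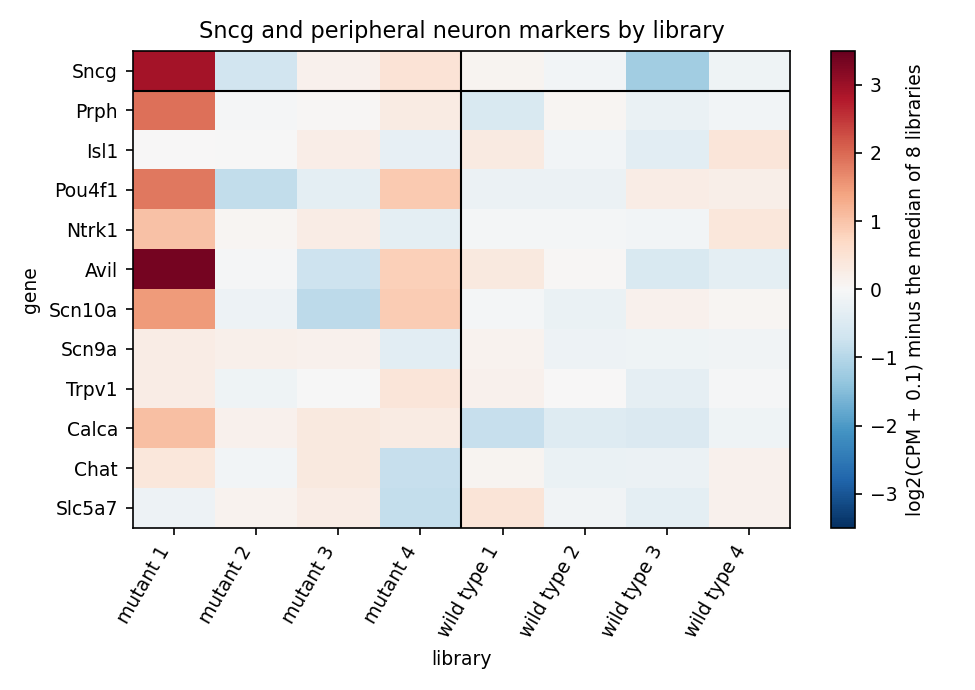
Sncg (top) and 11 peripheral sensory and motor neuron markers by library, mutants left and wild type right of the line. Colour gives log2(CPM + 0.1) minus the median of the 8 libraries, red above and blue below. Sncg, Avil, Prph, Pou4f1 and Scn10a are all highest in mutant replicate 1. Mnx1, with no reads, is left out.

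Mmrn2, an endothelial matrix gene whose annotated start lies 676 bases from the 5′ end of Sncg on the opposite strand, was at 6.65 CPM in mutants, against 6.81 CPM in wild type (log2 fold change -0.04 ± 0.12, edgeR adjusted p = 0.898). The nearest tested gene on the other side, the predicted gene Gm3219, was at 0.70 CPM in mutants, against 0.75 CPM in wild type (edgeR adjusted p = 0.914). For Sncb, which was at 125 CPM in mutant replicate 1 and between 115 and 131 CPM in the other mutants, leaving that library out gave a log2 fold change of 0.37 ± 0.06.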

How the data were processed

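Cortical RNA was sequenced in 8 libraries, and the authors deposited 1 quantification file per library. The submitters' processing notes name Salmon 0.12.0, DESeq2 and the GRCm38 build. How reads were filtered and whether strand was used is not given in the sources used here. Per the file headers, these files give an estimated count (expected count) and a TPM value per transcript, with effective transcript length. In the authors' own deposited comparison each gene has a signal (mean normalized counts) and a log2 fold change and its error. Its deposited p-values are not used here.

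Gene totals of these estimates were rounded to whole numbers. Genotypes were compared over all genes with edgeR 4.0.16 in R 4.3.3 (TMM, default low-count filter, two-sided quasi-likelihood test, with only genotype as a term), with Benjamini-Hochberg adjusted p under 0.05 counted as calls. limma 3.58.1 and DESeq2 1.42.0 were alternatives. Members, lists (18, with 182 entries) and tests were chosen with earlier results of these data known. Named genes were the members, the 5 genes nearest to each in profile (average log2 CPM of at least 1, prior count of 2, predicted genes left out), the called or otherwise lowest-p gene of each list, and the nearest tested neighbours. Some genes named by this rule are not reported here. Other genes in the text are illustrations. The edgeR fit was tested on simulated data without library sets and with larger changes than that of Sncb. That setting is simpler than these data. Exon and gene positions come from GENCODE M21 on GRCm38.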

Additional observations from a re-analysis of the deposited data

Results flagged for a closer look

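In each genotype, Sncb, Sncg and the 4 Sncb transcripts were checked for a library far from the other 3 of its group, 12 groups in all, and chance flags about 1 in 20 such groups. The Sncg level of mutant replicate 1, 1.88 CPM, stood above the other mutants by 0.89 of the group's range. Sncb-202 was at 0 TPM in mutant replicate 4, below the other mutants by 0.96 of the range. Sncb-204 was at 6.63 TPM in wild-type replicate 1, above the other wild-type libraries by 0.88 of the range.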

How the results depend on the processing

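The log2 fold change of Sncb kept its sign in all settings and lay between 0.34 and 0.40 when each library was left out in turn. It moved to 0.28 relative to the neuron list and to 0.19 relative to the synaptic vesicle list, by the construction of those scalings. The value of Sncg ran from 0.60 without mutant replicate 1 to 2.78 without mutant replicate 2. A filter of 5 CPM in at least 4 libraries gave it no value. Genes called between genotypes numbered 4, against 13 without a filter, 121 with the library set as a term and 406 by DESeq2. Leaving out libraries gave between 3 and 699 calls, the highest without mutant replicate 4, and 14 when wild-type replicate 1 was left out. List genes called numbered 0, against 3 with the library set as a term (Aldh1a2, Pld2 and Neurod6), 15 by DESeq2 and between 0 and 24 with a library left out, 24 without mutant replicate 4. The cause of these moves was not tested. The replicate block gave 20 calls between genotypes and 1 list gene, Gad2. Same-numbered libraries had correlations of 0.24, -0.03, -0.08 and 0.32 between their deviations. Mutant replicates 1 and 4 correlated best with their own number and mutant replicates 2 and 3 with wild-type replicate 1. The labels name no shared litter or batch, so the numbers were not taken to pair the libraries. Counts of 1 to 9 reads limit what can be said of Sncg in 7 libraries.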
